A study of Mus musculus with 6 samples.

Results

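The genes whose transcripts were counted in the retinas of 3 wild-type mice are described here, within wild type and with no comparison of genotypes. A gene was kept when its deposited count was 10 or more in each of the 3 wild-type (WT) retinas, which retained 15840 of the 55376 genes in the count table. The series holds 6 whole-retina RNA-seq samples, 3 from WT mice and 3 from mice carrying Wfs1-/-, all of the strain given in the labels as C57x129 and aged 240 days. In the methods the background is C57BL/6 J, the mutation is a targeted deletion of an exon of Wfs1, and the samples of a group are different mice. The labels name no treatment, and neither labels nor methods give the sex of the mice.

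The retina is a layered outgrowth of the brain that turns light into nerve signals. Rods and cones are the light-sensing photoreceptors. In them a visual pigment (an opsin) activates transducin, a G protein, which switches on a phosphodiesterase, and the fall in cyclic GMP closes a cation channel. Bipolar cells carry the signal inward, horizontal and amacrine cells modulate it, retinal ganglion cells (RGCs) send it to the brain through the optic nerve, and Müller glia span and support all layers. The mouse retina is rich in rods, and photoreceptors are known for a high use of energy and for strong aerobic glycolysis.

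Levels are given as TPM, the count of a gene divided by its summed exon length and scaled so that all genes of a retina add up to 1000000, where 10000 TPM is 1% of the transcripts. Total counts were 65714683, 47599124 and 17916885 in replicates 1, 2 and 3. The kept genes held between 99.8% and 99.9% of the counts of a retina. The least deeply sequenced retina set the limit for most genes near the threshold, since 253 of the 268 genes whose lowest count was exactly 10 had it in replicate 3. Those 268 genes had a median level of 0.846 TPM, and the 113 genes just outside, with a lowest count of 9, had a median of 0.909 TPM. Wfs1, the targeted gene, was at 46.7, 46.6 and 53.4 TPM in the 3 WT retinas, and at 0.465 to 9.19 TPM in the 3 retinas labelled as mutant.

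The 4 genes taken as retinal markers were present in each WT retina. Gnat1, the rod transducin alpha subunit, was at 19629, 18238 and 20188 TPM. Glul, the glutamine synthetase of Müller glia, was at 2636, 2547 and 2684 TPM. Opn1sw, the short-wavelength cone opsin, was at 495, 524 and 553 TPM, and Rbpms, an RNA-binding protein that marks RGCs, was at 33.8, 39.4 and 38.7 TPM. The ranges of these 4 genes did not overlap, and their ranks among the kept genes were 2, 28, 211 and 4964. In bulk tissue, fewer cells of a type and less RNA per cell cannot be told apart, so no marker level is a count of cells.

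A small number of genes held a large part of the RNA. The 10 most abundant genes made up 12.6% ± 0.497 of the transcripts (SD, n = 3) and the 100 most abundant 29.1% ± 0.204. From the top of the ranking, 614 genes were needed to reach 50% of all transcripts and 6090 to reach 90%. The median kept gene was at 18.4 TPM, with quartiles of 4.84 and 48.1 TPM. Of the kept genes, 14921 had a mean of at least 1 TPM, 1801 of at least 100 TPM, 86 of at least 1000 TPM and 5 of at least 10000 TPM. Protein-coding genes were 13757 of the kept genes (86.8%) and 94.1% ± 0.712 of the transcripts, while 488 long intergenic noncoding RNA genes made up 2.44% ± 0.727.

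**Figure D1:**
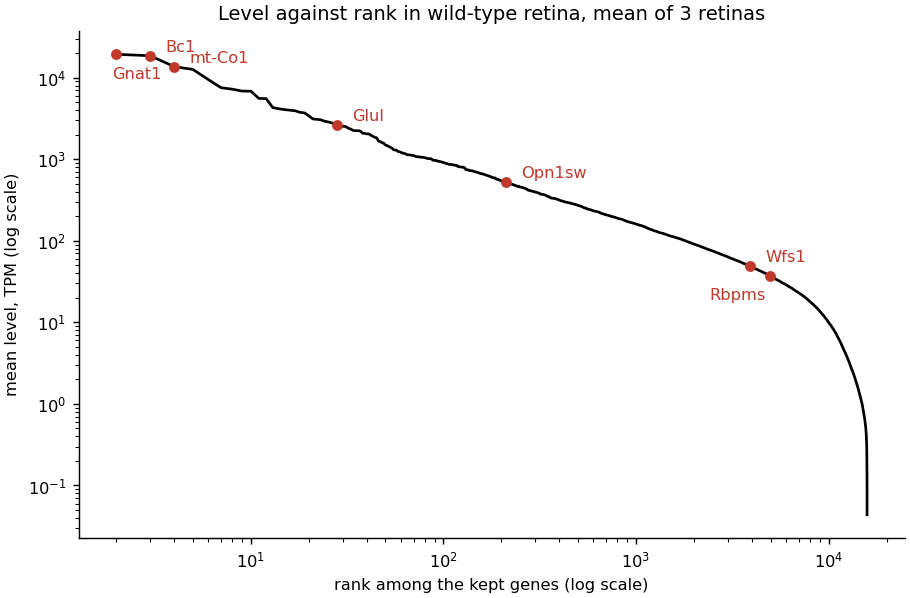
Mean level over the 3 WT retinas (TPM, log scale) against rank among the 15840 kept genes (log scale), drawn from rank 2, with 7 genes marked by red points. The curve falls from 19352 TPM for Gnat1 to 18.4 TPM at the median gene and then drops steeply among the lowest ranks, and Rbpms (rank 4964) lies far below Glul (rank 28).

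The 25 most abundant genes were dominated by genes of the rod list and by mitochondrial transcripts. Of these genes, 9 belonged to the rod list (8.41% of all transcripts), 2 more, Unc119 and Rcvrn, to the phototransduction list alone (0.745%), 7 were mitochondrially encoded mRNAs (5.01%) and 3 were glycolytic enzymes (1.30%). The remaining 4 (2.87%) were Bc1, Gm23935, the translation elongation factor Eef1a1 and the brain-type creatine kinase Ckb. Without division by exon length the ranking changed, and 15 of the 25 genes were also among the 25 with the most counts.

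Sag, the rod arrestin that ends the light response, was at 7820, 7239 and 7527 TPM and varied little between the retinas (coefficient of variation, CV, 3.86%). Prph2 and Rom1, the paired membrane proteins that shape the rims of outer segment discs, had means of 7226 TPM (SD 584, n = 3) and 5560 TPM (SD 428, n = 3). Gngt1, the rod transducin gamma subunit, was at 3648, 4948 and 3355 TPM, and Pdc, which binds the beta and gamma subunits, at 2773, 3423 and 2438 TPM. Both were highest in replicate 2. Gnb1 was at 6465, 7098 and 6971 TPM and Eef1a1 at 3174, 3070.0 and 3010 TPM. The ranges of Prph2, Sag and Gnb1 overlapped in part, with Prph2 between 6552 and 7572 TPM.

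**Figure D2:**
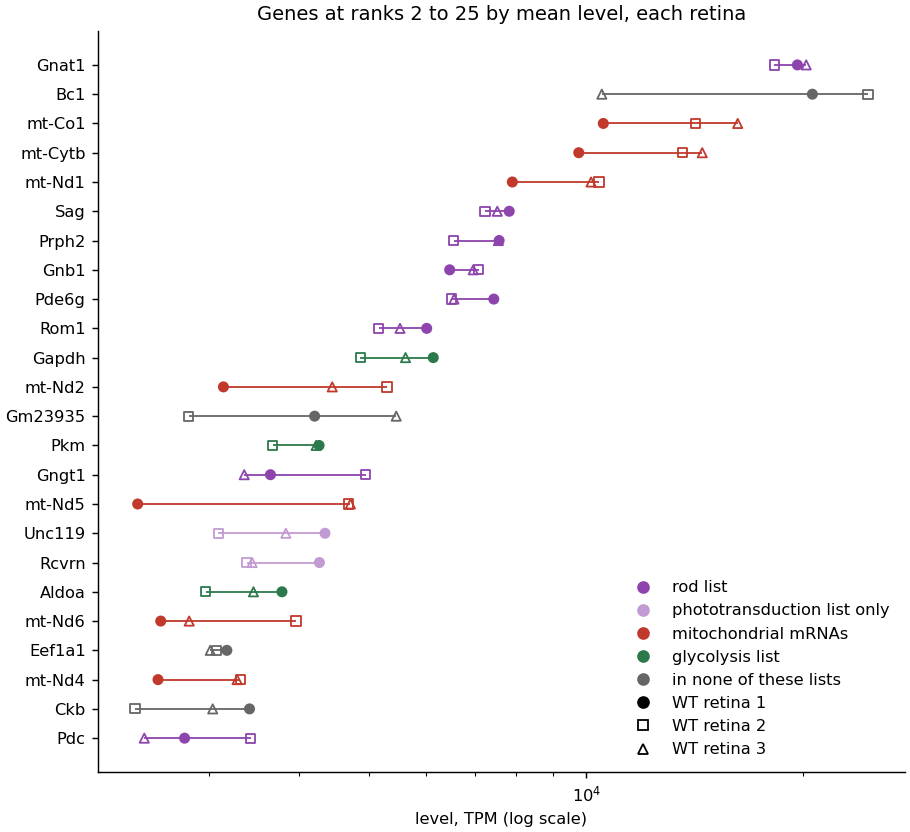
Level (TPM, log scale) of 24 of the 25 most abundant genes in each WT retina (filled circle, replicate 1; open square, replicate 2; open triangle, replicate 3), with lines from the lowest to the highest retina and colours for the list a gene belongs to. Bc1 spans 10510 to 24588 TPM, and each of the 7 mitochondrial mRNAs is lowest in replicate 1.

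Among the 25 genes, 2 were noncoding RNAs shorter than 200 bases, whose place rests on the division by length. They are printed whole, as the annotated sequences on which these levels were computed.
Bc1 (chr7:144914470-144914637, plus strand, mm10): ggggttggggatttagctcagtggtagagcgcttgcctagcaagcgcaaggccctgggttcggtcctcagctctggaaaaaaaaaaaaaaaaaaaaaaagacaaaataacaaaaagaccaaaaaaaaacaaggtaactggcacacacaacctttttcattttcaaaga
Gm23935 (chr16:11144125-11144181, plus strand, mm10): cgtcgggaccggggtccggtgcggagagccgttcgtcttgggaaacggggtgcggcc
Bc1 is a neuronal RNA found in dendrites. Its sequence of 168 bases has a GC content of 40.5% and holds long runs of A, and its level was 20589, 24588 and 10510 TPM, with replicate 3 lowest. It ranked 3 by TPM and 64 by count. Gm23935, annotated as a microRNA gene of 57 bases with a GC content of 73.7%, was at 4201, 2808 and 5451 TPM, with replicate 2 lowest. It ranked 14 by TPM and 2769 by count. In all, the 56 kept genes shorter than 200 bases made up 2.83% ± 0.618 of TPM but 0.137% of the counts. The library kit enriches polyadenylated RNA, and how well it keeps such short RNAs was not tested.

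All 19 genes of the rod list were kept, and 15 of them were among the 100 most abundant. Their sum was 96413, 93829 and 98765 TPM, or 9.63% ± 0.247 of the transcripts. The 3 sums lay within a factor of 1.05 of each other. Leaving out Gnb1, a transducin beta subunit that many other cell types also use, gave 8.95% ± 0.256. The part of cones and other cells in the remaining genes was not tested, so neither share is one of rods alone. The phosphodiesterase subunits were at a mean of 6837 TPM for Pde6g, the inhibitory subunit, 2250 TPM for Pde6b and 1855 TPM for Pde6a, the catalytic subunits. Cnga1 and Cngb1, which form the rod cation channel, had means of 726 and 448 TPM. The transcription factor Nrl, which specifies rods, was at 2721, 2426 and 2416 TPM, and its target Nr2e3 at 1017, 950 and 837 TPM. The lowest gene of the list was Esrrb, a nuclear receptor, with a mean of 328 TPM (SD 19.7, n = 3).

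All 12 genes of the cone list were kept, with sums of 2398, 2290 and 2411 TPM (0.237% ± 0.00668 of the transcripts), and none of them was among the 100 most abundant. Gnb3, the cone transducin beta subunit, led the list with a mean of 570 TPM (SD 59.3, n = 3), followed by Opn1sw with 524 TPM (SD 28.9), Arr3, the cone arrestin, with 407 TPM (SD 40.1), Gnat2, the cone transducin alpha subunit, with 268 TPM (SD 13.2) and the middle-wavelength opsin Opn1mw with 259 TPM (SD 6.21). The ranges of Gnb3 (507 to 625 TPM) and Opn1sw (495 to 553 TPM) overlapped, as did those of Gnat2 (254 to 281 TPM) and Opn1mw (254 to 266 TPM). Opn1sw exceeded Opn1mw in each retina.

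Rods and cones use related genes for the same step, so the level of a rod gene over that of its cone counterpart was computed in each retina for 10 such pairs, of which 9 are described. The median ratio over the pairs was 41.0, 39.3 and 36.6 in the 3 retinas (mean 38.96, SD 2.20, n = 3). The smallest ratio was that of Gnb1 to Gnb3, 12.1 (SD 1.83), and the largest that of Pde6g to Pde6h, 143 (SD 16.3). Many other cell types also use Gnb1, and the part of other cells in either gene of a pair was not tested. For the alpha subunits of transducin, Gnat1 over Gnat2, it was 72.7, 65.0 and 79.3.

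The order of the ratios was resolved only in part. The 3 values of Gnb1 to Gnb3 lay below those of every other pair, the values of Sag to the cone arrestin Arr3 (17.9 to 20.03) came next without overlap, and those of Pde6g to Pde6h lay above every other pair. In between, the pairs of cyclic-nucleotide-gated channel beta subunits (28.6 to 39.1), transducin gamma subunits (32.3 to 49.7), catalytic phosphodiesterase subunits (39.4 to 42.8) and sodium-calcium-potassium exchangers (33.1 to 59.5) formed a chain in which each overlapped the next when ordered by mean. The chain went on through Cnga1 to Cnga3 (53.6 to 76.1) to Gnat1 to Gnat2. The ratio of a pair also depended on exon lengths. From counts alone Pde6g exceeded Pde6h by a factor of 21.6 instead of 143, and Gnb1 exceeded Gnb3 by 20.7 instead of 12.1.

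**Figure D3:**
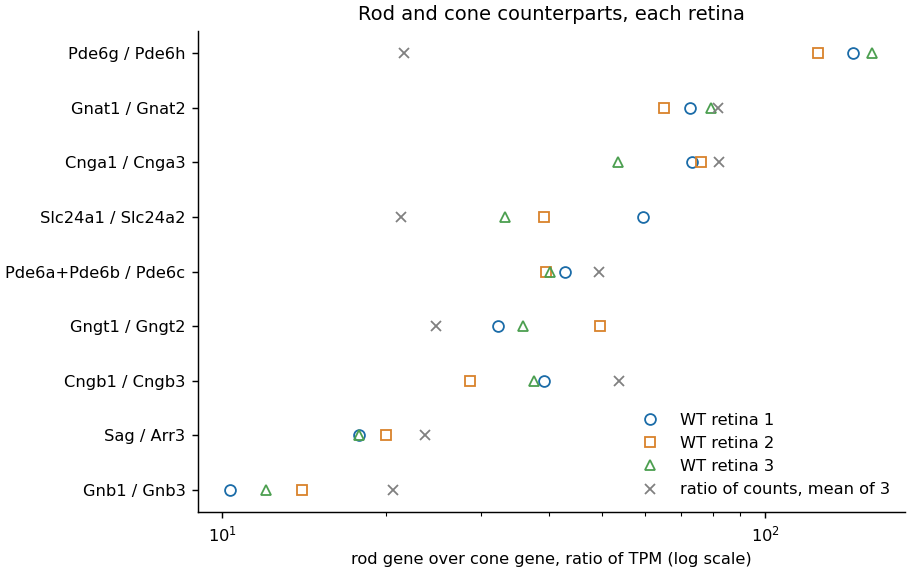
Ratio of TPM of the rod gene to its cone counterpart (log scale) for 9 of the pairs, in each WT retina (open symbols), with the mean ratio of counts as grey crosses. TPM ratios run from 10.4 for Gnb1 over Gnb3 in replicate 1 to 158 for Pde6g over Pde6h in replicate 3, and the cross lies well to the left of the symbols for Pde6g over Pde6h.

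The DNA upstream of photoreceptor genes is shown here because the homeobox factors Crx and Otx2, which both were kept (means of 1150 and 225 TPM), bind sites containing the letters TAATCC, and no binding was measured in these samples. Promoters were taken from RefSeq (GRCm38.p6, 250 bases before to 50 after the start of transcription) and searched for TAATCC on either strand, where the reverse strand reads GGATTA. Of the 19 rod genes 13 had a promoter in that table, and 4 of these held the letters (30.8%), as did 2 of 8 cone genes (25%). The share was 8.14% of the 27025 genes in the table and 7.24% of the 11567 kept genes with a promoter. Of the other classes, 5 of 11 genes of the retinal pigment epithelium, 2 of 5 of the general bipolar list, 2 of 9 of the ON bipolar list, 2 of 11 of the Müller glia list, 1 of 14 of the amacrine list and 0 of 8 of the RGC list held them, and in each of the other 9 lists at most 2 genes did. These are matches of letters in few genes, and they say nothing of whether a factor is bound. The 100 bases before the start are printed for each rod or cone gene with a match in that stretch, with the matched letters in capitals.
Cngb1 (rod, chr8:95306586-95306685, minus strand): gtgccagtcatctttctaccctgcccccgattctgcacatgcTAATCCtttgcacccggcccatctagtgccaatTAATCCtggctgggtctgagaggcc
Sag (rod, chr1:87803580-87803679, plus strand): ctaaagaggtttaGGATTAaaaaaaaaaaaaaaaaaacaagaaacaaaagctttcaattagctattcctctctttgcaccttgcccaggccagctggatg
Gngt1 (rod, chr6:3993908-3994007, plus strand): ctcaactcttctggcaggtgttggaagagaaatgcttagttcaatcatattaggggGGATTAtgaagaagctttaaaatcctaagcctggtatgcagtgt
Gnat2 (cone, chr3:108092966-108093065, plus strand): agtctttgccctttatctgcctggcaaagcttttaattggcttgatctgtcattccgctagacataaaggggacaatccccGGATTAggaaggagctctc
Thrb (cone, chr14:17660860-17660959, plus strand): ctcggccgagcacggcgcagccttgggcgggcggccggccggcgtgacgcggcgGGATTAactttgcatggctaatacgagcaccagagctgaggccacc
Cngb1 held the letters at 2 places, and the match nearest to a start was in Gnat2, 19 bases upstream. Levels of these genes ranged from 38.1 TPM for Thrb, a thyroid hormone receptor, to 7529 TPM for Sag, and Cnga1, whose match began 228 bases upstream, was at 726 TPM.

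Müller glia had the second-largest marker sum, 9061, 8530 and 8839 TPM over 18 genes, all of them kept. Glul led it, followed by the lipid carrier Apoe with a mean of 1220 TPM (SD 238, n = 3), the chaperone Clu with 1059 TPM (SD 147), Dkk3, a secreted Wnt-pathway protein, with 898 TPM (SD 48.7) and the carbonic anhydrase Car2 with 855 TPM (SD 63.6). The transcription factor Sox9 was the lowest of the list with 14.1 TPM, and the water channel Aqp4 and the potassium channel Kcnj10 were at 75.5 and 51.5 TPM. Marker sums of lists differ in length and in how many cell types share a gene, so they were not read as shares of cells.

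Among the inner retinal neurons, the RGC list summed to 1990, 1919 and 1748 TPM, with all 16 genes kept. Its most abundant genes were Sncg (385 TPM), Thy1 (369 TPM), the neurofilament gene Nefl (307 TPM) and the neuronal tubulin Tubb3 (208 TPM). The transcription factors that define RGCs were lower, with 30.1 TPM for Pou4f1, 10.7 TPM for Pou4f2 and 7.95 TPM for Pou4f3, and Opn4, the melanopsin of light-sensitive RGCs, was at 3.83 TPM. The amacrine list summed to 1674, 1624 and 1613 TPM, with 15 of 16 genes kept, led by the calcium-binding protein Calb2 (631 TPM) and Gad1 (219 TPM), which makes GABA. The developmental factor Ptf1a was its only gene outside, with counts of 0, 4 and 2.

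The ON bipolar list summed to 1070, 1093 and 984 TPM and was led by the calcium-binding protein Cabp5 (208 TPM), Pcp2 (202 TPM), the G protein gamma subunit Gng13 (157 TPM) and Prkca (124 TPM). Grm6, the receptor that senses photoreceptor glutamate, was at 81.7, 76.7 and 76.5 TPM, close together, while Trpm1, the channel it controls, was at 59.6, 76.1 and 100.6 TPM. The general bipolar list summed to 875, 978 and 865 TPM. The horizontal cell list summed to 556, 502 and 511 TPM, of which Sept4 (268 TPM) and Ndrg1 (180 TPM) held most, while Lhx1 and Onecut1, which define these cells, were at 5.30 and 1.37 TPM.

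Astrocytes, vessels and immune cells contributed low levels. The astrocyte list summed to 44.2 to 52.1 TPM, with Gfap at 12.8, 9.29 and 7.94 TPM, highest in replicate 1. The microglia list summed to 163 to 178 TPM with 12 of 13 genes kept (Ctss 32.8 TPM, C1qa 23.0 TPM, Itgam outside). The endothelial list summed to 177 to 203 TPM with all 12 kept and a median gene of 7.96 TPM. Kdr (69.1 TPM) alone held 35.7% of this list, while Pecam1 was at 6.51 TPM and Cdh5 at 3.09 TPM. In the list of pericytes and smooth muscle, 7 of 9 genes were kept and the sum was 32.1 to 39.2 TPM, led by Rgs5 (21.8 TPM), with Tagln and Myh11 outside.

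The lists for pigment epithelium, blood, lens, and cornea, iris and ciliary body varied more between samples than the other 13 lists. The retinal pigment epithelium list, of which 14 of 15 genes were kept, summed to 199, 297 and 240 TPM. Ttr (99.3, 142 and 111 TPM) alone held 48.3% of the sum of its kept genes. The visual-cycle enzyme Rpe65 was at 13.8, 33.7 and 15.4 TPM, highest in replicate 2. The members did not share 1 order, since the pigment genes Dct (7.02, 6.79 and 11.4 TPM) and Tyrp1 (1.81, 1.82 and 2.90 TPM) were highest in replicate 3 and Pmel was lowest in replicate 2. Mlana, also a pigment cell gene, was outside. The hemoglobin genes Hbb-bs and Hba-a1 were at 99.7, 75.04 and 36.9 TPM and at 36.4, 23.9 and 12.7 TPM, lowest in replicate 3. Each of them has a near-identical copy, so their split between copies is uncertain. The copies Hba-a2 and Hbb-bt, with Alas2 and Slc4a1, were outside, each with fewer than 10 counts in replicate 3. For cornea, iris and ciliary body, 2 of 7 genes were kept, with Optc, a proteoglycan made in the ciliary body, at 1.41, 1.61 and 17.5 TPM, highest in replicate 3. Zic1 had a mean of 3.60 TPM, and the keratins Krt5, Krt12 and Krt14, Aldh3a1 and Kera were outside. Of 20 lens genes 2 were kept, Crybb1 and Bfsp1, and the sum was 6.39 to 10.9 TPM. The other 18 lens genes had at most 74 counts in a retina. The oligodendrocyte list summed to 33.2 to 39.1 TPM with 4 of 8 genes kept, led by Cnp (20.6 TPM) and Mbp (11.7 TPM), and Cldn11, Mog, Mobp and Opalin were outside. The part of carried-over tissue in other genes was not tested.

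**Figure D4:**
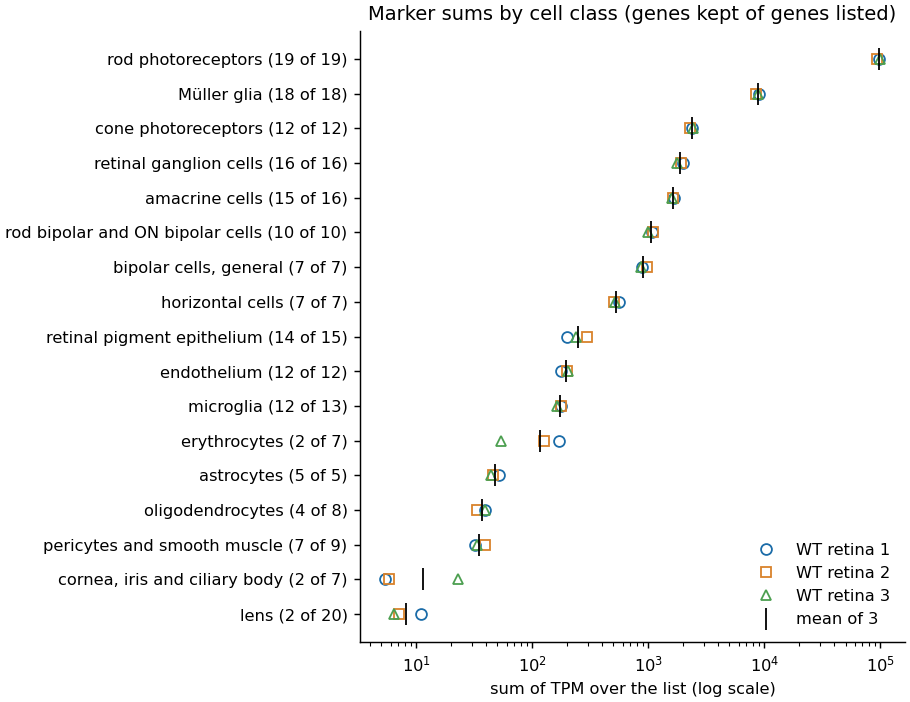
Sum of TPM over each marker list (log scale) in each WT retina (open symbols) and the mean of the 3 (black bars), for 17 lists labelled with the genes kept of those listed. Rods sum to 96336 TPM on average, Müller glia to 8810 TPM and cones to 2366 TPM, and the symbols of a list lie close together except for pigment epithelium, erythrocytes, lens and the list of cornea, iris and ciliary body.

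Grouped by function, the 22 phototransduction genes, all kept, made up 9.02% of the transcripts. Beyond the rod genes above, the list was led by Unc119, which carries transducin between compartments, with a mean of 3754 TPM (SD 631, n = 3), and by the calcium sensors Rcvrn with 3695 TPM (SD 495) and Guca1b with 2236 TPM (SD 234). The guanylate cyclases that restore cyclic GMP were much lower, with 244 TPM for Gucy2e and 76.4 TPM for Gucy2f. Rgs9, which speeds the shut-off of transducin, was at 114, 218 and 258 TPM, and its anchor Rgs9bp was at 404, 548 and 514 TPM. Both were lowest in replicate 1.

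In the visual cycle, which regenerates the pigment's chromophore, all 14 genes were kept and the sum was 0.52% of the transcripts. Rbp3, the retinoid carrier of the space around photoreceptors, was at 2322, 2610 and 3511 TPM and held most of it. Rlbp1 (724 TPM), Rdh12 (663.5 TPM) and Abca4 (542 TPM) came next. Rpe65 (20.999 TPM), Rdh5 (14.2 TPM) and Lrat (4.56 TPM), which act in pigment epithelium, were lower. Genes in between included Rdh11 (59.3 TPM), Rdh10 (41.8 TPM) and Rgr (31.3 TPM), of which Rgr is also in the pigment epithelium list. Of 23 outer segment and cilium genes 22 were in the table and kept (1.91% of the transcripts), from Prph2 down to Rpgr at 10.997 TPM, and Eys was not in the table. The 16 ribbon synapse genes made up 1.02%, led by the vesicular glutamate transporter Slc17a7 at 2468, 2093 and 2463 TPM, Snap25 with a mean of 2078 TPM and Cplx4 with 1097 TPM.

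The list of glycolysis summed to far more than that of the tricarboxylic acid cycle. Its 23 genes of glycolysis and lactate handling, all kept, made up 2.78% of the transcripts. Gapdh was at 6135, 4863 and 5615 TPM, Pkm at 4261, 3675 and 4221 TPM and Aldoa at 3784, 2968 and 3455 TPM, each lowest in replicate 2. Gapdh and Eef1a1 have many processed copies in the genome, and how reads shared with them were counted is not given in the sources used here. Ldha, the muscle-type lactate dehydrogenase subunit, had a mean of 2041 TPM (SD 166, n = 3), and Ldhb, the heart-type subunit, 504 TPM (SD 59.6). Bsg, a chaperone of MCT1, had a mean of 1428 TPM. Of the lactate transporters, Slc16a1 (MCT1) was at 166, 213 and 185 TPM and Slc16a3 had a mean of 62.6 TPM. Slc16a8 had a mean of 10.1 TPM and Slc16a7 (MCT2) of 2.81 TPM. The ranges of these 4 transporters did not overlap. The 17 tricarboxylic acid cycle genes made up 0.314%, led by Mdh2 with 467 TPM. These lists differ in length, and the first also holds transporters and Bsg. The median gene was at 632 TPM in the list of glycolysis and lactate and at 158 TPM in that of the cycle.

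The 12 genes of energy buffering and ion pumping made up 1.02%, led by Ckb at 3412, 2366 and 3033 TPM, with the sodium pump subunit Atp1b2 at a mean of 1490 TPM. Among 21 genes of endoplasmic reticulum chaperones and calcium (0.291%), Calr, a calcium-binding chaperone, was highest with 538 TPM (SD 40.0, n = 3), Hspa5, the main lumenal chaperone, had 233 TPM (SD 17.5), and Wfs1 had 48.9 TPM (SD 3.89), rank 3897. Of the 22 genes of transmitter machinery, all kept (0.419%), Slc17a7 was the most abundant. The 30 transcription factors, all kept, summed to 0.71%, led by Nrl, Crx and Nr2e3.

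From the genes named in the study a list of 21 was drawn up, which does not hold all of them, and 19 of the list were kept. Besides Glul, Bsg, Slc16a1, Slc16a7, Gfap and Wfs1, given above, the intermediate filament Vim was at 177, 151 and 176 TPM and the receptor Gpr37 at 89.7, 106 and 108 TPM. The nuclear receptor Nr4a1 was at 52.8, 45.05 and 51.6 TPM, Stat3 at 26.4, 29.8 and 31.0 TPM and the cytokine Il18 at 14.4, 13.8 and 9.39 TPM. The remaining kept genes lay below 10 TPM on average, with means of 8.82 TPM for Lyz2, 6.70 TPM for Edn2, 5.68 TPM for Bdnf, 5.33 TPM for Lcn2, 4.996 TPM for C4b, 2.72 TPM for Nr4a3, 1.68 TPM for Lgals3 and 1.14 TPM for Alpk1. Lyz2, a lysozyme of myeloid cells, was at 3.96, 15.3 and 7.23 TPM, highest in replicate 2. Cybb (counts of 22, 66 and 2) and Mmp12 (8, 40 and 2), which myeloid cells also express, were outside and were highest in replicate 2.

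Mitochondrially encoded mRNAs made up 38880, 55429 and 56130 TPM, or 5.01% ± 0.976 of the transcripts, and replicate 1 was lowest. The 2 mitochondrial ribosomal RNAs added 0.385% ± 0.0741. Of the 13 mRNAs 10 were kept, and they fell into separate groups. A first group of 7 had counts between 8898 and 397961, led by mt-Co1, a cytochrome oxidase subunit, at 10560, 14163 and 16222 TPM, mt-Cytb at 9764, 13586 and 14485 TPM and mt-Nd1 at 7898, 10414 and 10156 TPM. The other 4 of this group, mt-Nd2, mt-Nd5, mt-Nd6 and mt-Nd4, had means between 3047 and 4292 TPM. The other 6, mt-Co2, mt-Atp8, mt-Atp6, mt-Co3, mt-Nd3 and mt-Nd4l, had counts between 0 and 94, although they encode subunits of the same complexes. The share of 5.01% therefore holds almost nothing from these 6 genes.

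The 6 genes with low counts lie next to each other on the mitochondrial genome, from base 7013 to base 10173. In the GENCODE M21 transcripts, between 98.0% and 100% of the 50-base words of 5 of them also occurred in a transcript annotated outside the mitochondrial genome, while mt-Atp8 shared none. For mt-Co1 this share was 51.1%, for mt-Nd4 62.2%, and for the other 5 genes with high counts between 0 and 8.19%. The matching genes on chromosome 1, between bases 24611535 and 24616197 of mm10, also had low counts. Gm28438, which matches mt-Nd3, had 1802, 1690 and 453 counts, and each of the others had at most 178. How reads with several matching places were counted is not given in the sources used here, and the part of shared sequence in the low counts was not tested. Because of the shared sequence the levels of these 5 genes, of mt-Co1 and of mt-Nd4 are uncertain. The share of 5.01% for all mitochondrially encoded mRNAs is uncertain with them. Only annotated transcripts were searched, so the lack of shared words for mt-Atp8 does not show that its sequence is unique in the genome. The level of mt-Atp8 is uncertain too. The kit does not mark strand, so counts of mt-Nd6, which is encoded on the opposite strand to the other mRNAs, cannot be told apart from RNA antisense to it.

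**Figure D5:**
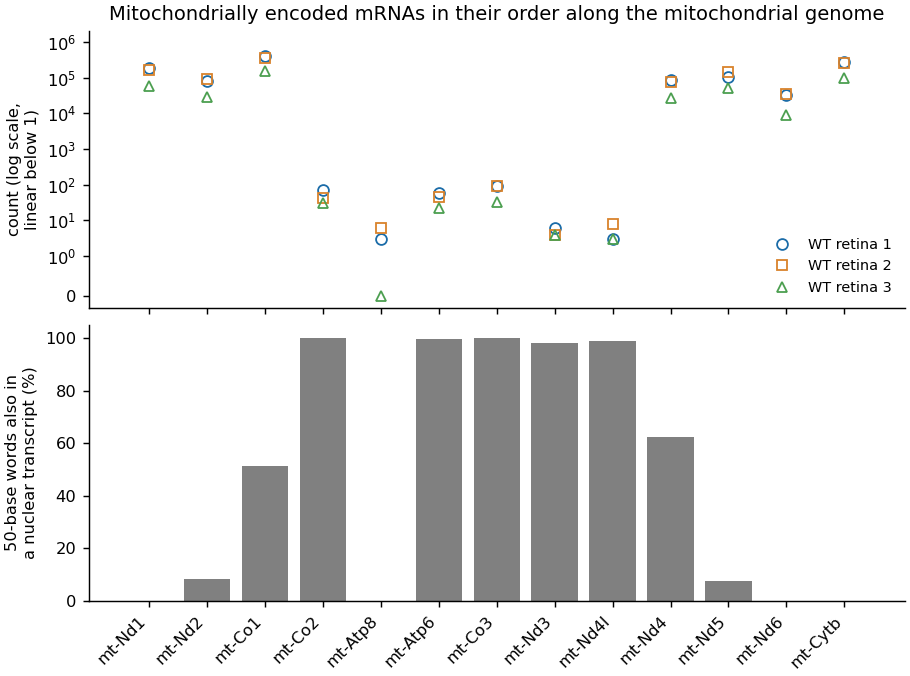
Upper panel: counts of the 13 mitochondrially encoded mRNAs in each WT retina (log scale, linear below 1), in their order along the mitochondrial genome. Lower panel: percent of the 50-base words of each mRNA that also occur in a transcript annotated outside that genome. The 6 adjacent genes from mt-Co2 to mt-Nd4l have 94 counts or fewer, and 5 of them share at least 98.0% of their words.

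For 14486 of the kept genes (91.5%) the spread between the 3 retinas was larger than the counting error of a Poisson count. The median CV over the kept genes was 15.0% (quartiles 9.29% and 23.2%), beside a median counting part of 3.81% computed as if each count were an independent molecule. The CV fell with depth, from a median of 38.3% for the 599 genes with a mean of up to 30 counts to 10.3% for the 641 genes above 10000 counts, where the counting part was 0.945%. Low counts were more often even than odd, with 73.3%, 77.0% and 75.5% even among genes with 1 to 19 counts in replicates 1, 2 and 3, against 49.6% to 51.0% among genes with 1000 or more. So the counting part is a lower limit at least for low genes, and the share of genes above it may be overstated. Near-equal shares of even and odd at high counts do not show that those counts are independent. Intervals from the counting part cover counting error only.

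Of the kept genes, 4477 (28.3%) had a CV below 10% and 403 (2.54%) above 50%. Among genes with a mean of at least 100 TPM the smallest spread was that of Arf1, a vesicle-coating GTPase, at 544, 545 and 544 TPM, followed by the cytoskeletal protein Add1, the protein kinase A subunit Prkaca, the copper transporter Slc31a2 and the photoreceptor scaffold Mpp4, all with a CV below 1%. The CV of Arf1 (0.0821%) was below its counting part (0.882%), and these 5 were picked for their low CV among 1801 genes.

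The largest spread among genes with a mean of at least 10 TPM was that of the pseudogene BC002163, at 4.88, 7.21 and 108 TPM. Of the 10 genes with the largest CV (63.0% to 147%), 4 were processed pseudogenes, a type that made up 1.31% of all kept genes. Replicate 3 was highest in 7 of the 10, beside 35.3% of all kept genes. The 10 were picked for their high CV among 10004 genes. Besides BC002163 the processed pseudogenes were Gm14303, Gm9522 and Gm44954, and the small nucleolar RNA Snord64 was also among the 10. Of the 5 protein-coding genes, the elongation factor Tcea3 was at 3.47, 2.22 and 26.4 TPM, Gm30191 at 9.06, 5.14 and 31.7 TPM, the secreted glutathione peroxidase Gpx3 at 20.2, 17.9 and 54.9 TPM, the hormone-binding protein Crhbp at 5.53, 7.36 and 18.3 TPM and the lipid transporter Abca1 at 5.401, 8.29 and 19.03 TPM. In each of these 5 genes replicates 1 and 2 were both below replicate 3, the retina that was also highest for Optc.

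Whole libraries also differed. Replicate 1 was the lowest of the 3 for 45.7% of the kept genes, replicate 2 for 31.9% and replicate 3 for 22.4%. The log2 ratio of replicate 2 to replicate 1 rose with exon length (Spearman's coefficient 0.42 across 15840 genes, which are not independent and share both libraries), with a median of -0.15 for genes of 1000 to 2000 bases and 0.44 for genes above 6000 bases. Some long photoreceptor genes were lowest in replicate 1, such as Rp1, an axonemal protein, at 336, 645 and 550 TPM. Impg2, a matrix proteoglycan, was at 107, 190 and 259 TPM. Others were lowest in replicate 2. Esrrb of the rod list (5626 bases) was at 337, 305 and 342 TPM. Cacna1f of the ribbon synapse list (6079 bases) was at 131, 111 and 167 TPM. The part of transcript length in the spread was not tested. Pearson's correlations of log2 levels between pairs of retinas were 0.985, 0.986 and 0.988.

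Genes of the sex chromosomes separated replicate 3 from the others. Xist, the RNA that silences an X chromosome in females, had 10583, 19834 and 4 counts (24.2, 66.9 and 0.0366 TPM). The Y-linked genes Eif2s3y, Ddx3y, Uty and Kdm5d had 0 to 2 counts in replicates 1 and 2 and 440 to 1137 counts in replicate 3. None of these 5 genes was kept, since each fell below 10 counts in at least 1 retina. By these genes replicates 1 and 2 read as female and replicate 3 as male, so each SD and CV given here spans both. Replicate 3 was also the least deeply sequenced retina. The part of this difference in the spread of other genes was not tested.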

How the data were processed

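RNA was taken from whole retinas of 240-day-old WT and Wfs1-/- mice, and libraries were made with a TruSeq kit that does not mark strand. The labels name a phenol reagent for the RNA and the paper a column kit. The authors deposited raw counts of reads on exons per gene, with the summed exon length, and the submitters' processing notes name Trimmomatic 0.39, STAR 2.5.3a, featureCounts 1.6.4 and mm10, while the paper names other versions and the GENCODE annotation. The treatment of reads with several matching places is not given in the sources used here.

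Library columns were matched to samples by the genotype letter and replicate number in their names, where C was taken to stand for control (wild type) and W for the Wfs1 mutant. A further 2 library columns, which carry a replicate number that the samples lack, were left out. The WT counts were divided by exon length and scaled to 1000000 per retina (TPM). Genes with 10 or more counts in each of the 3 WT retinas were kept. Values are means ± SD over 3 mice, and the CV is SD over mean. The counting part of a CV assumes Poisson counts. Gene types, and the 50-base words shared between transcripts, came from GENCODE M21, which held 98.4% of the genes under the same symbol and chromosome.

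The text names the 25 most abundant genes, the leading members and those outside in each list, a list of genes the study names, both genes of each rod and cone pair, the sex-linked genes, and the genes with the largest and smallest CV. A few genes that this rule names are not reported here. The members, lists and pairs were chosen with earlier results of these data known. Beyond the level of Wfs1 itself, given to check the labels, nothing was compared between genotypes, and no test was run. The scripts used Python 3.11.15 with pandas 2.3.3 and numpy 2.4.6, and edgeR 4.0.16 in R 4.3.3 for other scalings and for the dispersion. TPM and CV were tested on simulated data with known values.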

Additional observations from a re-analysis of the deposited data

How the results depend on the processing

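Of 39 alternative values, 32 stayed within the spread between retinas (for the number of kept genes, within 1.5 times). For the median CV the spread was instead the SD, 2.45, of the 3 values that each leave out a retina. Those 3 values were themselves among the 39. The number of kept genes was between 15106 (libraries thinned to the shallowest total) and 20193 (1 count or more in each retina), and leaving out each retina in turn gave 15864 to 17947. As shares of counts, with no division by exon length, the 100 most abundant genes held 23.1% in place of 29.1%, mitochondrially encoded mRNAs 2.18% in place of 5.01%, and rod genes 10.2% in place of 9.63%. Without mitochondrially encoded genes in the total, the 100 most abundant genes held 25.9% and rod genes 10.2%. Leaving out each retina gave 29.1% to 29.3%, 4.72% to 5.58% and 9.51% to 9.76% for these shares, and a median ratio of rod to cone genes between 37.9 and 40.1. The median CV moved with the retina left out. It was 10.2% without replicate 1, 12.4% without replicate 2 and 15.1% without replicate 3, each over only 2 retinas, and the biological CV from edgeR's common dispersion was 18.1% over all 3, 14.7% without replicate 1, 18.6% without replicate 2 and 20.4% without replicate 3. Other scalings gave a median CV of 15.0% to 15.1%, and a minimum of 100 counts gave 13.0%. A depth of 17916885 counts in replicate 3, where 3 counts are 0.167 CPM, limits which low genes could be kept. No paired analysis was possible because only 1 group was described.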

Other observations

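Sets of housekeeping genes that the report does not describe made up a further part of the RNA. They were chosen by name pattern after the data were seen. The protein-coding genes of the cytosolic ribosome (78 of 83 kept) summed to 47689, 39270 and 38717 TPM, which was 4.19% ± 0.503 of the transcripts and highest in replicate 1. Nuclear genes for subunits of oxidative phosphorylation (79 of 84 kept) summed to 28264, 24069 and 23069 TPM, or 2.51% ± 0.276, and were also highest in replicate 1, where the mitochondrially encoded mRNAs were lowest. The kept genes of these sets had median exon lengths of 976 and 983 bases, against 3228.5 over all kept genes, and the part of transcript length in these differences was not tested.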
